A study of Mus musculus with 48 samples.

Results

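The sites described here are places in the mouse genome where 2 mutant CTCF proteins, R377C and S354F, gave a peak and no other transgene did. A site is a FLAG peak of R377C cells that overlapped a FLAG peak of S354F cells and a peak of the CTCF antibody in wild-type (WT) cells, and that overlapped no FLAG peak of R339Q, R342C, K365T, R377H, Q418R, R448Q, H455R or WT cells. Of the 30462 peaks in the R377C FLAG list, 1459 met this rule, which is 4.79% of that list, while the 10 FLAG lists of the series hold 188715 peaks in all. They are called the R377C/S354F-only sites below. The sites were chosen by their presence in the R377C, S354F and CTCF antibody lists and their absence from the 8 other FLAG lists, so these values are given as a description without a test.

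CTCF binds DNA through a row of zinc fingers, each of which contacts a few bases, and at many of its sites it halts cohesin, the ring-shaped complex that extrudes chromatin loops. SMC3 is a core subunit of that ring, and its peaks at CTCF sites are commonly read as places where cohesin pauses. In embryonic stem cells such sites bound many loops and domains, and single changes in a zinc finger can alter binding at some sites and spare others.

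The series asks how such changes affect where CTCF binds and where cohesin sits. E14Tg2a mouse embryonic stem cells of the strain 129/Ola carried an auxin-inducible degron on endogenous CTCF and a doxycycline-inducible, FLAG-tagged Ctcf transgene. The transgene was R377C, S354F, R339Q, R342C, K365T, R377H, Q418R, R448Q, H455R or WT, and in all 10 genotypes the FLAG and SMC3 lists come from cells given 500 µM indole-3-acetic acid (IAA) and 1 µg/ml doxycycline for 2 days. The CTCF antibody lists come from WT cells with that treatment and from untreated WT cells. All cell lines were derived from E14Tg2a as clones, and the labels do not say how many clones stand behind a genotype. The FLAG antibody sees only the transgene protein, whereas the CTCF antibody sees endogenous CTCF as well; how much endogenous CTCF remained after treatment was not measured in these lists. Peak lists hold no expression values, so the labelled cell type could not be checked against marker genes.

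By the labels the 48 samples form 24 groups with 2 replicates each, and for 22 groups there was a peak list that pools both. Each list therefore gives 1 value per site with no spread between replicates, no difference between genotypes carries a p-value, and the 95% Wilson intervals in parentheses are for the counting of peaks alone. The depth of the libraries is unknown from these lists, and list lengths differed widely. The FLAG lists held 30462 peaks in R377C, 24152 in S354F, between 3855 (H455R) and 30332 (Q418R) in the other mutants, and 15392 in WT. The SMC3 lists held 100708 peaks in R377C, 80645 in S354F, between 42030 (Q418R) and 153647 (R448Q) in the other mutants, and 71962 in WT. Absence of a site from a list can follow from weaker binding or from a shorter list, and these cannot be told apart here.

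Sequence was read where the RefSeq promoter windows (GRCm38.p6, 250 bases before to 50 after a gene start) covered a site. Of the 1435 R377C/S354F-only sites on chromosomes with windows, 46 (3.21%) overlapped such a window, against 2.99% of all R377C peaks. The following stretches are the parts of the 5 most strongly bound of these sites that lie in the window, written 5′ to 3′ on the strand of the gene. Capitals mark a match, on either strand, to a loose form of the core of the CTCF motif, which is CC, 3 free letters, AG, 2 free letters and GGC. This form was chosen after the sequences had been seen. Tfeb encodes a transcription factor of lysosomal genes, Zbtb34 a zinc-finger protein, Atp7a a copper-transporting ATPase, Mfsd6l a protein of the major facilitator family and S100a6 a calcium-binding protein.
Tfeb (chr17:47736913-47737086, plus strand): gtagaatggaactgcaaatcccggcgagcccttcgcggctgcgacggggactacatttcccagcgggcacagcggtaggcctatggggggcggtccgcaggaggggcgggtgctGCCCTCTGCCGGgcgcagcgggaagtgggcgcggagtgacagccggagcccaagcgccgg
Zbtb34 (chr2:33431472-33431574, minus strand): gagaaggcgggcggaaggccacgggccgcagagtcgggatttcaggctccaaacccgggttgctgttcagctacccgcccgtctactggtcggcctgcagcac
Atp7a (chrX:106026977-106027097, plus strand): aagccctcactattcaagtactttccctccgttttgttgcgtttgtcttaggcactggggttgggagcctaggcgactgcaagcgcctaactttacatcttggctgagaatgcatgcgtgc
Mfsd6l (chr11:68555936-68556130, plus strand): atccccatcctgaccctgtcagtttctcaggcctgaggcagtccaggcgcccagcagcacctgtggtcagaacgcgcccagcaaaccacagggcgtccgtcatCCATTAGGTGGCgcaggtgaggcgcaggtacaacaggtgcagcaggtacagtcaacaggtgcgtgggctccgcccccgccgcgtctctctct
S100a6 (chr3:90612644-90612918, plus strand): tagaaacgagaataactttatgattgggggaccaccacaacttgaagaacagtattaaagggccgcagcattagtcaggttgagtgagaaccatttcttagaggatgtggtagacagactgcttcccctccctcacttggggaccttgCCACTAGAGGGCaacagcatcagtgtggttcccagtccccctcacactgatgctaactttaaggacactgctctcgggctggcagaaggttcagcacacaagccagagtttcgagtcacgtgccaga
A match stands in the stretches of Tfeb, Mfsd6l and S100a6, and none in those of Zbtb34 and Atp7a.

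Another 4 stretches were picked after their letters had been seen, to show the 2 commonest forms of the match. Homer3 encodes a postsynaptic scaffold protein and Palm the membrane-bound protein paralemmin, and their stretches have G at position 8 of the match, counted from 1 at its first letter. Ndufv1 encodes a subunit of respiratory complex I and Sf3b2 a splicing factor subunit, and theirs have A at that position.
Homer3 (chr8:70282749-70283048, plus strand): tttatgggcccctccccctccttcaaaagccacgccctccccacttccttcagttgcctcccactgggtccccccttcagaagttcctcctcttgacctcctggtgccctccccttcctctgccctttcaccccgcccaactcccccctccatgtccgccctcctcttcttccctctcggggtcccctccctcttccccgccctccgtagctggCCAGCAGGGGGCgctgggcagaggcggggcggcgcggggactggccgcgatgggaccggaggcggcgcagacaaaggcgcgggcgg
Palm (chr10:79793426-79793565, plus strand): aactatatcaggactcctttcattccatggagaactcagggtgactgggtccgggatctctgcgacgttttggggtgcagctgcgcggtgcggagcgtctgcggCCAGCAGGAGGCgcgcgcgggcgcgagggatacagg
Ndufv1 (chr19:4012858-4013005, minus strand): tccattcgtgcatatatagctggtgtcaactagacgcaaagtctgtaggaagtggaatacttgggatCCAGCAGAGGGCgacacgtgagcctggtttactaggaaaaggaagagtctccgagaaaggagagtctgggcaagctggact
Sf3b2 (chr19:5295573-5295707, minus strand): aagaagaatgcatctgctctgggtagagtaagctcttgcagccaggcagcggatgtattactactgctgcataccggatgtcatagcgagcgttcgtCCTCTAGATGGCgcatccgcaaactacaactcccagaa

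Counted over whole windows of 300 bases, 31 of the 51 windows that an R377C/S354F-only site overlapped held this loose form on either strand, which is 60.8% (47.1% to 73.0%). The share was 40.6% (37.4% to 43.8%) of the 895 windows that a shared site overlapped, a shared site being one that R377C, S354F, the CTCF antibody and at least 1 of the 8 other FLAG lists had in common. All 32851 windows held it in 8.61%. The 51 windows belong to 48 genes and partly share bases. With overlapping windows merged, 27 of 45 stretches (45.5% to 73.0%) held the letters at R377C/S354F-only sites, against 333 of 788 (42.3%, 38.9% to 45.7%) at shared sites, so the intervals then overlapped slightly. Because the loose form was chosen after sequences of these sites had been seen, no difference between the kinds of site is read from its shares.

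With a stricter form that also asks for G at position 8 (CC, 3 free letters, AGG, 1 free letter and GGC), the shares were 25.5% (15.5% to 38.9%) of windows at R377C/S354F-only sites, 26.4% (23.6% to 29.4%) at shared sites and 3.43% in all windows. With AGGGGGC, a shorter run that overlaps the stricter form, they were 33.3% (22.0% to 47.0%) at R377C/S354F-only sites, 31.8% (28.9% to 35.0%) at shared sites and 10.6% in all windows. What separated the loose form from the strict one was the letter at position 8. With each match counted once by its place in the genome, that letter was A in 13 of 30 matches at R377C/S354F-only sites (43.3%, 27.4% to 60.8%), against 103 of 366 (28.1%, 23.8% to 33.0%) at shared sites and 28.7% (24.1% to 33.7%) in windows with a WT FLAG peak. It was G in 15 of 30 (50.0%, 33.2% to 66.8%) at R377C/S354F-only sites and in 224 of 366 (61.2%, 56.1% to 66.1%) at shared sites. The intervals for both letters overlapped between the kinds of site, so a difference in that letter was not detectable with 30 matches. These counts describe letters in promoter windows only; the sequence of the sites away from promoters was not analysed here.

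R377C and S354F shared more sites to the exclusion of the others than any other pair of the 10 transgenes did. Counted on the R377C list, 1459 sites were found with S354F only, 824 with R339Q only, 505 with R448Q only and 54 with WT only. Counted on the S354F list, 1494 intervals were found with R377C only, which is 6.19% of that list, 466 with R339Q only and 84 with WT only. Of the 6309 R377C peaks that met a CTCF antibody peak and none of the 8 other FLAG lists, 23.1% were thus also in the S354F list. Of the 3891 such S354F peaks, 38.4% were in the R377C list. The R377C list is the longest of the 10, and on the nearly as long Q418R list 411 intervals were found with R377C only. The part of list length in these counts was not tested.

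**Figure D1:**
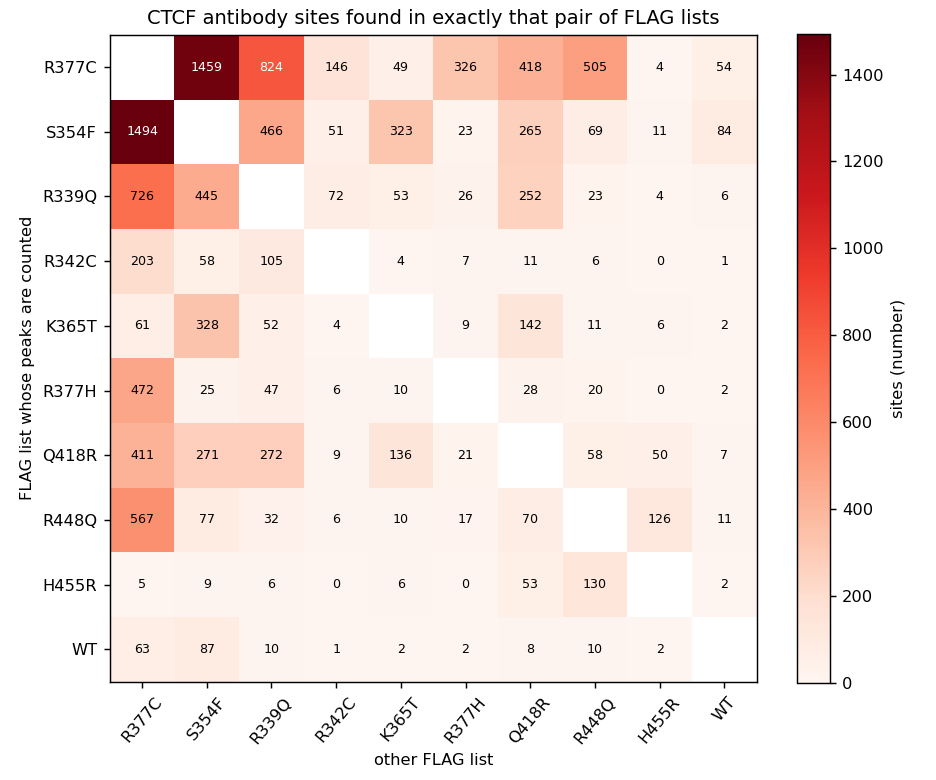
Number of CTCF antibody sites found in exactly 1 pair of FLAG lists, with the list whose peaks are counted on the y axis and its partner on the x axis. The pair R377C and S354F has the highest counts, 1459 and 1494, and the pair R377C and R339Q follows with 824 and 726.

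The overlap that joined the 2 mutants ran from 1 to 527 bp, with a median of 146 bp. Some sites lay near peaks of the excluded lists, and these distances are given without those of other R377C peaks. The distance from a site to the nearest excluded FLAG peak ran from 5 to 976541 bp, with a median of 5862 bp and quartiles of 1246.5 and 16459 bp. It was within 50 bp at 10 sites, within 500 bp at 251 and within 5000 bp at 679. Just outside the rule stood 1837 sites that met exactly 1 of the 8 excluded lists, most often R339Q (514), then WT (371) and R448Q (282). At 37 of them that overlap was at most 50 bp, with a lowest value of 3 bp. The median R377C peak value of those 37 was 2.80, against 2.81 at the 10 sites just inside the rule.

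The deposited peak value is a peak-caller score, and it was compared only within a list, as the percentile of the peak among all peaks of that list. In the R377C FLAG list the R377C/S354F-only sites were weak, with values from 1.33 to 7.48 and a median of 2.91, against a median of 5.93 at shared sites. Their median percentile was 28.3 (quartiles 11.9 and 42.7, highest 79.9), against 71.3 at shared sites and 22.9 at R377C-alone sites, which met the CTCF antibody and none of the other FLAG lists. In the S354F FLAG list their values ran from 1.54 to 27.0 with a median of 2.95, against 4.22 at shared sites. The median percentile there was 31.3 (quartiles 15.1 and 49.4), against 62.7 at shared sites. The upper 50% of the R377C list held 14.9% of the R377C/S354F-only sites and 77.9% of the shared sites, and the upper 50% of the S354F list held 24.8% and 64.4% of them in the same order.

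The R377C peaks at these sites were narrow, with a median width of 196 bp, against 518 bp at shared sites and 157 bp at R377C-alone sites. A single summit was listed for 1190 of them (81.6%), against 49.2% of the shared sites. By contrast, the CTCF antibody peaks that held them were high in their lists, and wider than the FLAG peaks. In treated WT cells the median percentile of that peak was 86.2 (quartiles 82.1 and 91.1), against 93.3 at shared sites and 89.7 at R377C-alone sites. In untreated WT cells it was 91.7 (quartiles 87.2 and 95.5), against 94.9 at shared sites and 91.5 at R377C-alone sites. The median width of the treated CTCF antibody peak was 1305.5 bp at R377C/S354F-only sites, against 2277 bp at shared sites and 2079 bp at R377C-alone sites. In untreated cells it was 1881.5 bp at R377C/S354F-only sites and 2260 bp at shared sites.

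**Figure D2:**
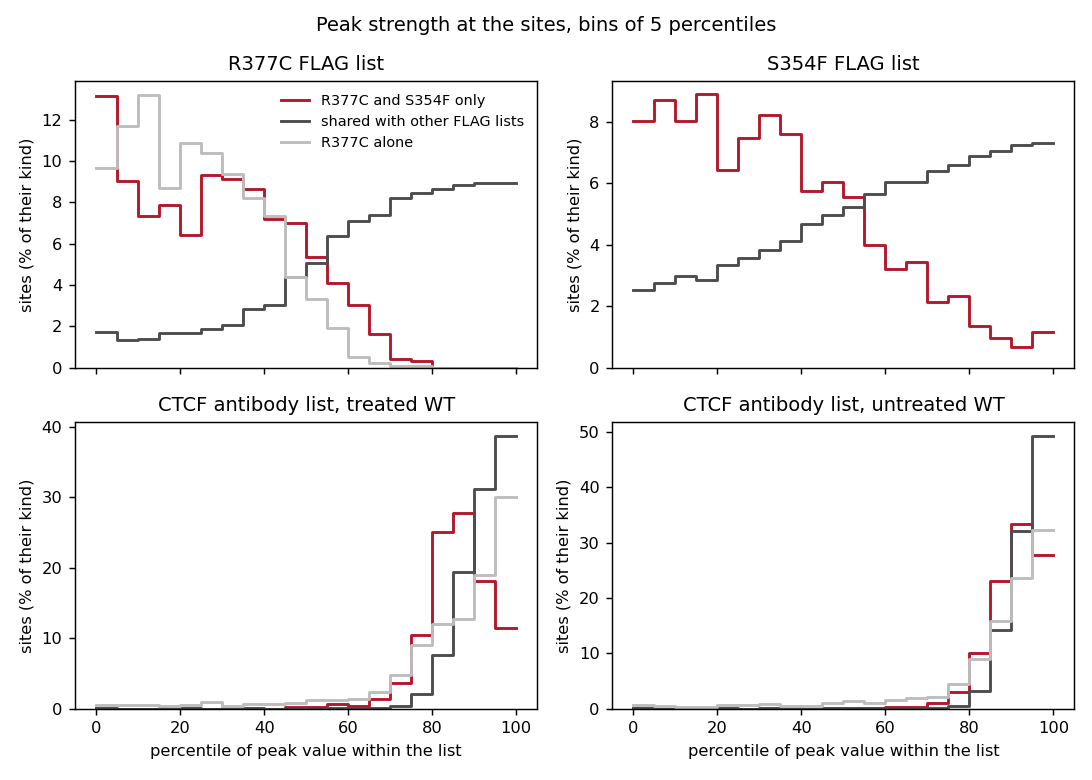
Distribution of peak strength, as the percentile of the peak within its list (x axis, bins of 5 percentiles), with the share of sites of each kind on the y axis. R377C/S354F-only sites fill the lower part of both FLAG lists (medians 28.3 and 31.3) and the upper part of both CTCF antibody lists (medians 86.2 treated and 91.7 untreated).

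The sites thus ranked high in the CTCF antibody lists and low in the FLAG lists. Over all R377C peaks the median CTCF antibody percentile was higher still, at 91.9 in treated and 93.8 in untreated cells. The high rank by the CTCF antibody is therefore not particular to these sites. Of the 1459, 1453 had a CTCF antibody peak in both treated and untreated WT cells, 3 in treated cells only and 3 in untreated cells only. The rule asked for 1 of the 2, which was met by 89.9% (treated) and 90.3% (untreated) of all R377C peaks. The sites fell in 1434 untreated CTCF antibody peaks, 23 of which held 2 sites. Of those 1434 peaks, 61.0% were in the strongest of 10 equal classes of the untreated list (class 10) and 94.2% in classes 9 and 10. Seen from the untreated list, an R377C/S354F-only site lay in 875 peaks of class 10 (4.98% of the class) and 476 of class 9 (2.70%). Shared sites lay in 72.2% of the peaks of class 10 and 16.4% of those of class 9, and 5.76% of class 10 and 46.3% of class 9 met no FLAG peak at all.

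Because the CTCF antibody peaks were wider than the FLAG peaks, an excluded FLAG peak could lie in the same CTCF antibody peak without touching the site. This was so for 389 of the 1459 sites (26.7%), against 59.8% of the R377C-alone sites, and it left 1070 sites whose CTCF antibody peak no excluded list touched. The 389 lay a median of 517 bp from the centre of the untreated CTCF antibody peak, and the 1070 a median of 210 bp. For shared sites that distance was 306 bp. SMC3 is given below with and without these 389 sites.

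Cohesin is a measurement that the rule did not use. An SMC3 peak counted when it overlapped the site by at least 1 bp, so a wider site could meet one more easily. Median widths were 196 bp at R377C/S354F-only, 518 bp at shared and 157 bp at R377C-alone sites. The part of width in the shares was not tested. With SMC3 counted within 500 bp, the share at R377C/S354F-only sites in R377C cells was 43.6%. In R377C cells 457 of the 1459 sites had an SMC3 peak, 31.3% (29.0% to 33.7%), against 72.6% of the shared sites, 11.2% of the R377C-alone sites and 47.1% of all R377C peaks. In S354F cells 553 sites had one, 37.9% (35.4% to 40.4%), against 69.4% of the shared sites, 13.0% of the R377C-alone sites and 45.3% of all R377C peaks. In WT cells, whose transgene gave no FLAG peak there, 536 sites had one, 36.7% (34.3% to 39.2%), against 78.5% of the shared sites and 51.8% of all R377C peaks. The intervals of S354F and WT cells overlapped, and that of R377C cells lay below both. At the 2397 S354F peaks that met the CTCF antibody and no other FLAG list, SMC3 was found in 20.2% in R377C, 35.5% in S354F and 27.6% in WT cells. In S354F cells that share lies within the interval at R377C/S354F-only sites.

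The other mutants, none of which gave a FLAG peak at these sites, spread on either side. R448Q cells had SMC3 at 740 sites (50.7%, against 64.4% of all R377C peaks) and R342C cells at 657 (45.0%, against 58.3%). R377H cells, with another change at the same arginine as R377C, had it at 30.7% (against 50.1%). The share was 23.4% in K365T (background 48.8%), 20.4% in R339Q (43.6%), 18.4% in H455R (38.6%) and 12.1% in Q418R (38.4%). In every one of the 10 genotypes the share was below that of all R377C peaks and above that of R377C-alone sites. The length of the SMC3 list moved with this order in part: R448Q had the longest list and Q418R the shortest, and its part in the shares was not tested. Taken with equal numbers of the 42030 strongest SMC3 peaks from every list, the share was 20.2% in R377C and 30.0% in S354F cells, against 30.5% in WT cells, which then had the highest share of the 10. With the 3855 strongest FLAG peaks of every list 34 sites met the rule, with SMC3 at 94.1% in R377C, 97.1% in S354F and 94.1% in WT cells, and with a reciprocal overlap of 50% it was 41 sites, with 4.88% in R377C, 2.44% in S354F and 0% in WT. The 34 sites were not among the R377C/S354F-only sites, because the excluded lists were shortened too. Their shares therefore do not show how SMC3 varies with FLAG strength at the R377C/S354F-only sites. With the upper 50% of the R377C and S354F lists 81 sites remained. SMC3 was then found at 32.1% in R377C, 45.7% in S354F and 35.8% in WT cells. The shares above hold for whole FLAG lists and an overlap of at least 1 bp.

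**Figure D3:**
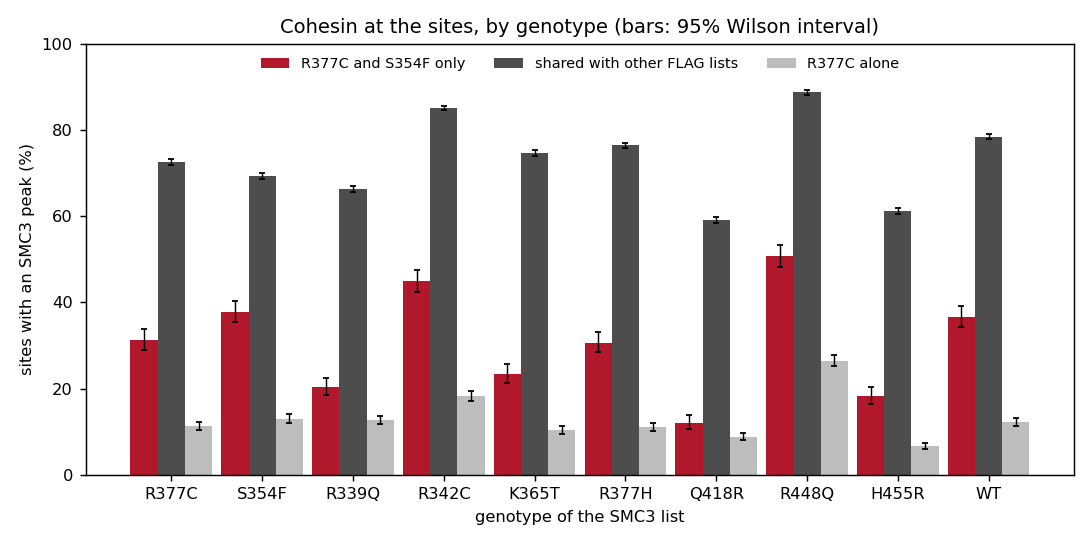
Share of sites with an SMC3 peak (y axis, percent) in each genotype (x axis), with 95% Wilson intervals. At R377C/S354F-only sites the share runs from 12.1% in Q418R to 50.7% in R448Q, with 31.3% in R377C, 37.9% in S354F and 36.7% in WT, and in each genotype it lies between shared and R377C-alone sites.

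Set against the shared sites of the same list, the SMC3 share at R377C/S354F-only sites was 0.572 of that at shared sites in R448Q, 0.546 in S354F, 0.529 in R342C, 0.432 in R377C and 0.205 in Q418R, against 0.468 in WT. By this ratio S354F stood at rank 2 of the 10 genotypes, WT at rank 4 and R377C at rank 5. Site by site, SMC3 was present in S354F and absent in WT cells at 159 R377C/S354F-only sites, and absent in S354F and present in WT cells at 142. At shared sites those counts were 704 and 2236. For R377C they were 116 and 195 at R377C/S354F-only sites, and 751 and 1748 at shared sites. For R448Q, which gave no FLAG peak at the sites, they were 295 and 91 at R377C/S354F-only sites, and 2079 and 340 at shared sites. R448Q cells thus exceeded WT cells at both kinds of site. S354F cells were below WT at shared sites, while their counts of 159 and 142 at R377C/S354F-only sites were close. There the order of S354F and WT was reversed with equal numbers of SMC3 peaks, at 30.0% against 30.5%. It was also reversed at the 1070 sites without an excluded FLAG peak in the CTCF antibody peak, at 35.4% against 35.8%.

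FLAG strength differed between the kinds of site, so SMC3 was also read within quartiles of the R377C peak value. In quartile 1, the weakest, SMC3 was found in R377C cells at 34.9% (31.4% to 38.7%) of 641 R377C/S354F-only sites, against 52.3% of the shared sites and 12.8% of the R377C-alone sites. In S354F cells the shares in that quartile were 44.9% and 63.8% at R377C/S354F-only and shared sites, and in WT cells they were 43.2% and 64.9%. In quartile 3 the share in R377C cells was 25.9% of 212 R377C/S354F-only sites and 65.5% of the shared sites. At shared sites SMC3 was most frequent in quartile 4, at 88.5% in R377C cells; only 5 R377C/S354F-only sites stood in that quartile, and 0 of 5 had SMC3 in R377C cells, which allows a share of up to 43.4%. Among the R377C/S354F-only sites, the share decreased over quartiles 1 to 3. It was 34.9%, 29.6% and 25.9% in R377C cells and 44.9%, 33.3% and 30.2% in S354F cells. In WT cells it was 43.2%, 32.8% and 28.8%. The intervals of quartiles 1 and 2 overlapped in R377C cells and did not in S354F or WT cells.

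Most of these sites had cohesin in few genotypes. SMC3 was found in none of the 10 genotypes at 451 sites (30.9%), in 1 at 205, in 2 at 160 and in all 10 at 54 (3.70%). The median was 2 genotypes per R377C/S354F-only site and 9 per shared site, and 42.6% of the shared sites had SMC3 in all 10 and 4.68% in none. SMC3 was in both R377C and S354F cells at 363 sites and in at least 1 of them at 647. At another 361 sites it was in neither and in some other genotype. A pattern that followed FLAG exactly, SMC3 in R377C and S354F cells and nowhere else, was seen at 3 sites. The pair R342C and R448Q alone had SMC3 at 37 sites, S354F and R448Q alone at 17, and R448Q by itself at 75.

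**Figure D4:**
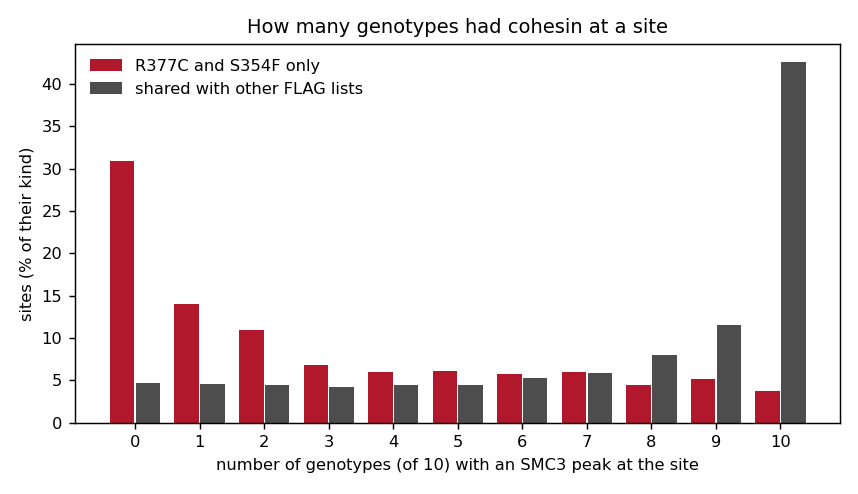
Share of sites (y axis, percent) by the number of genotypes with an SMC3 peak at the site (x axis, 0 to 10). R377C/S354F-only sites peak at 0 genotypes (30.9%) and shared sites at 10 (42.6%).

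Where SMC3 was present, its peaks ranked lower than at shared sites. The median percentile within the SMC3 list was 68.7 at R377C/S354F-only sites in R377C cells, 81.4 in S354F and 74.7 in WT, against 92.5, 91.6 and 90.3 at shared sites in the same order of genotypes. At the 389 sites with an excluded FLAG peak in the same CTCF antibody peak, SMC3 was found in 35.5% in R377C, 44.7% in S354F and 39.3% in WT cells. At the other 1070 the shares were 29.8% in R377C, 35.4% in S354F and 35.8% in WT. In R339Q cells the shares of those with and without were 31.1% and 16.5%. The peak names inside the SMC3 lists carry the tags b1 and b2 in R377C and S354F, b2 in R339Q, b3 in Q418R and b1 in the others including WT; the labels do not explain these tags, and their part in the shares was not tested.

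The strongest sites, ranked by the mean of the percentiles in the R377C and S354F FLAG lists, show these patterns one by one, with coordinates in mm10. SMC3 values stand beside each other for the genotypes that had a peak, and as each list has its own scale no size is read across genotypes. The first was in the gene body of Sh3gl3 (chr7:82272614-82273146), which encodes an endophilin that bends membranes. Its peak value was 6.62 in R377C FLAG and 6.48 in S354F FLAG, and 52.2 in treated and 34.5 in untreated CTCF antibody lists. SMC3 had a value of 4.90 in S354F, 3.07 in R342C, 4.92 in R448Q and 2.67 in WT cells, and no peak in R377C cells or the other 5 genotypes. The site ranked first thus had cohesin in S354F and WT cells and not in R377C cells.

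The second site was in Bgn (chrX:73493704-73493813), the gene of the matrix proteoglycan biglycan, with 6.08 in R377C and 5.88 in S354F FLAG. No genotype had SMC3 there, and the nearest excluded FLAG peak, of K365T, was 32880 bp away. The third was in Six2 (chr17:85665044-85665249), a homeobox gene of kidney progenitors, with 5.12 in R377C and 6.94 in S354F FLAG and SMC3 in R377C (3.44), S354F (4.06), R342C (4.13) and R448Q (5.56). WT cells had no SMC3 peak at Six2.

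The fourth, 550 bp from Timm22 (chr11:76406098-76406374), stood by the gene of the channel of a mitochondrial import complex. Its value was 4.06 in R377C FLAG and 12.4 in S354F FLAG, and its treated CTCF antibody peak of 258 was at percentile 99.99. An R377H FLAG peak lay 102 bp away in the same CTCF antibody peak. SMC3 was found in 7 genotypes, with 12.9 in R377C and 15.5 in S354F, both at percentile 99.8 of their lists, and 17.1 in WT cells, at percentile 99.4. Sites in the body of Runx2 (chr17:44743927-44744312), the transcription factor of bone formation, and 261 bp from Ltbp1 (chr17:75004967-75005218), which binds latent TGF-beta, were the fifth and sixth. Runx2 had FLAG values of 5.28 in R377C and 5.73 in S354F and SMC3 in S354F and R342C only. Ltbp1 had 5.76 in R377C and 5.28 in S354F and SMC3 in 4 genotypes, R377C and S354F among them.

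SMC3 was in R377C and S354F cells alone at 3 sites. In the body of Dnajc27 (chr12:4107439-4107674) FLAG was 4.88 in R377C and 5.50 in S354F, and SMC3 was 2.63 and 3.20 in the same order. The second was 71.6 kb from Atp10a (chr7:58584423-58584535), a phospholipid flippase gene, with SMC3 of 2.84 in R377C and 2.52 in S354F. The third was in Fgd6 (chr10:94116238-94116697), an exchange factor for the GTPase Cdc42, with SMC3 of 2.84 in R377C and 5.74 in S354F. In the R377C list these SMC3 peaks were at percentiles 16.7 (Dnajc27), 32.1 (Atp10a) and 32.1 (Fgd6). In the S354F list they were at 59.4 (Dnajc27), 13.7 (Atp10a) and 94.3 (Fgd6).

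Other strong sites had SMC3 in no genotype: Asph, an amino-acid hydroxylase gene (chr4:9664886-9665155), Dgkg, a diacylglycerol kinase gene (chr16:22475164-22475267), and Mtm1, the myotubularin gene (chrX:71311272-71311579). Asph had FLAG of 3.52 in R377C and 12.3 in S354F but CTCF antibody peaks at percentiles 47.6 (treated) and 50.2 (untreated) only. The sites highest in FLAG among those with SMC3 in all 10 genotypes included one 25 bp from Jrk (chr15:74709348-74709871) and one in Ank3 (chr10:69662876-69663034), which encodes an ankyrin. At Jrk SMC3 was 5.08 in R377C, 4.34 in S354F, 10.4 in R448Q and 5.75 in WT, at percentiles 93.0, 88.5, 96.1 and 88.8 of those lists. At Ank3, where an R377H FLAG peak lay 74 bp away, SMC3 was 4.78 in R377C and 3.08 in S354F, against 22.3 in R342C, 17.3 in R377H, 25.0 in R448Q and 22.1 in WT. These Ank3 values put the site at percentiles 91.5 in R377C and 54.0 in S354F, against 99.9 in WT.

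The sites under the strongest untreated CTCF antibody peaks all had an excluded FLAG peak in the same CTCF antibody peak. They were in Dnah17, an axonemal dynein gene (chr11:118103638-118103765), 9830107B12Rik (chr17:48100659-48100815) and Capzb, an actin-capping subunit gene (chr4:139288946-139289300), 2 intervals 62.5 and 62.8 kb from Sestd1 in 1 CTCF antibody peak, and a second site near Tfeb (chr17:47793448-47793644). Dnah17 had the highest untreated CTCF antibody value of all, 146, with FLAG of 2.16 in R377C and 5.20 in S354F. Its SMC3 was 14.0 in R377C, 12.1 in S354F and 27.5 in WT, at percentiles 99.87, 99.39 and 99.97 of those lists. An R377H FLAG peak lay 162 bp away.

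At the promoter sites printed above, SMC3 was found in 9 genotypes at Tfeb, 7 at Atp7a, 3 at Zbtb34, 3 at S100a6 and none at Mfsd6l. Tfeb had SMC3 of 4.86 in R377C, 6.67 in S354F and 6.67 in WT, and Q418R alone lacked it. These were percentiles 92.0, 95.9 and 91.2 of the lists in that order. Atp7a had 3.74 in R377C, 5.32 in S354F and 6.15 in WT, at percentiles 78.6, 93.3 and 90.0. At Mfsd6l a match stood in a site with FLAG of 4.30 in R377C and 3.47 in S354F and no cohesin in any list.

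**Figure D5:**
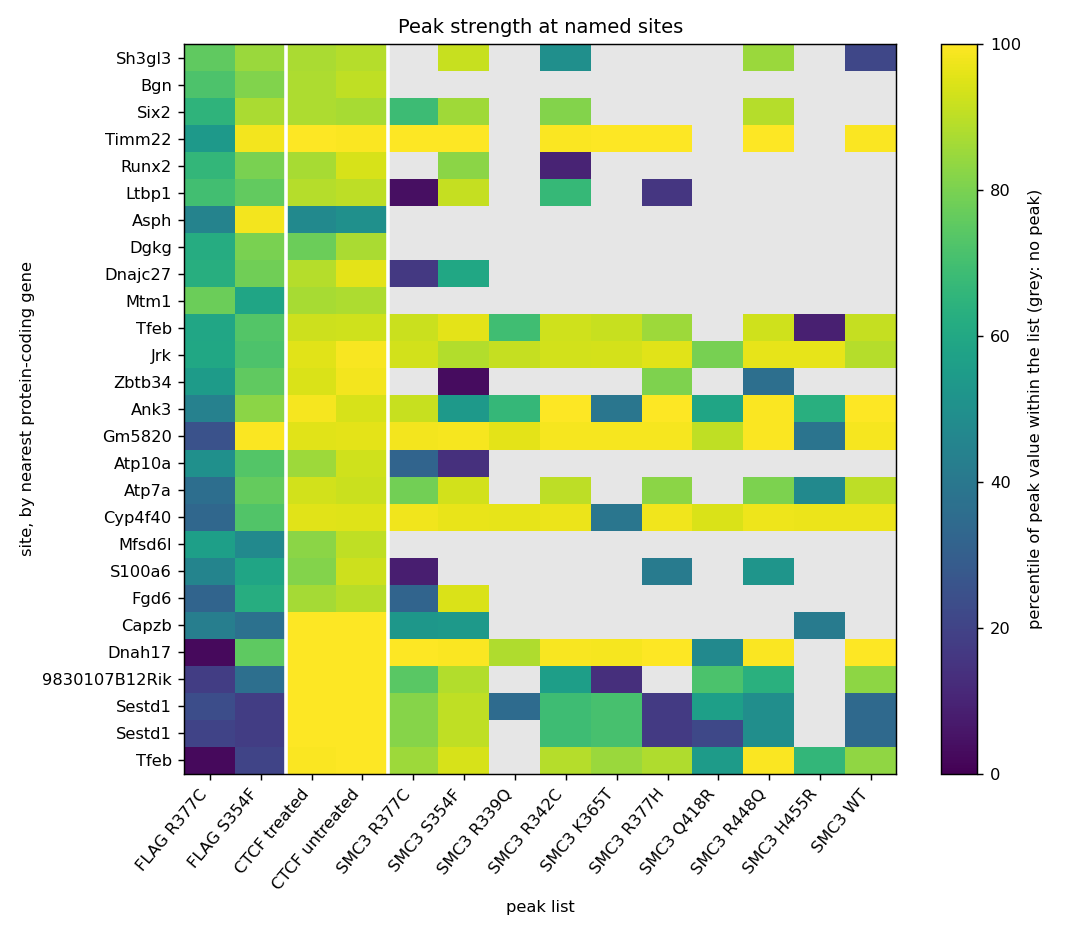
Peak strength at named sites (rows, by nearest protein-coding gene, strongest in FLAG first) as the percentile within each list (columns); grey means no peak. CTCF antibody percentiles are high in most rows, while SMC3 runs from no genotype (Bgn, Asph, Dgkg, Mtm1, Mfsd6l) to all 10 (such as Jrk and Ank3).

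Few sites had a CTCF antibody peak in 1 condition only. Treated cells alone had one near Trappc5, in Thsd4 and near Gm1527, with treated values of 134, 2.48 and 4.13. Untreated cells alone had one at sites in Tm9sf3 and near Svs4, among others, with untreated values of 2.27 at Tm9sf3 and 3.56 at Svs4. Trappc5 (chr8:3675655-3675783) had FLAG of 2.21 in R377C and 18.4 in S354F, and an R448Q peak 177 bp away.

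The position of a site relative to genes was not used by the rule. Within 1 kb of the end of a gene span lay 221 of them (15.1%), against 16.4% of the shared sites, 8.82% of the R377C-alone sites and 12.8% of all R377C peaks. A further 760 (52.1%) lay deeper inside a gene span, against 48.9% of all R377C peaks, and 478 (32.8%) between genes, against 38.3%. Counted in any position, 890 sites (61.0%) overlapped a gene span, against 57.5% of all R377C peaks. The 1459 sites had 1343 different nearest protein-coding genes, and 106 of these genes had 2 or more sites. Dnah8, an axonemal dynein gene on chromosome 17, had 5 and Wdfy3, which acts in the autophagy of protein aggregates, had 4 on chromosome 5; both are named because of these counts. The R377C values at Dnah8 ran from 2.15 to 2.92 with SMC3 in 4 genotypes at 1 site, 1 genotype at another and none at the other 3. Chromosome 7 held 8.57% of the sites and 6.44% of all R377C peaks, chromosome 19 held 4.39% and 2.69%, and chromosome 1 held 4.25% and 6.53%.

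The sites were also set beside gene lists of stem cell biology and development. Of 189 listed genes found in the annotation, 7 had an R377C/S354F-only site within 10 kb. Some R377C peak lay that near to 111 of them and a shared site to 91, but these sets hold 30462 and 16917 sites. The 1459 sites are 4.79% of the R377C list, so the lower count is not read as scarcity near these genes. Those with a site were 1 of 23 pluripotency genes (Dppa3), 2 of 16 genes of cohesin and its regulators (Smc3 and Stag1), 1 of 33 imprinted genes (Kcnq1), 1 of 39 Hox genes (Hoxb13), 1 of 23 neural genes (Irx3), 1 of 22 mesoderm and endoderm genes (Eomes), 0 of 16 trophoblast and 0 of 17 germline genes. Within 50 kb the count was 19 genes, so it rests on the window.

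At Dppa3, a gene of naive pluripotency and the germ line, the site was 3.24 kb away (chr6:122633511-122633857). FLAG was 4.00 in R377C and 2.34 in S354F, and SMC3 was in all 10 genotypes. SMC3 was 2.80 in R377C, 4.41 in S354F and 4.28 in WT, at percentiles 27.9, 89.1 and 80.7 of those lists. At Smc3 itself the site was 2.54 kb away (chr19:53648376-53648573), with FLAG of 2.08 in R377C and 9.09 in S354F, an R448Q FLAG peak 163 bp away, and SMC3 of 3.29 in R377C, 4.06 in S354F, 3.34 in R377H and 15.7 in R448Q. WT cells had no SMC3 peak there.

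At Irx3, a homeobox gene, the site was 605 bp away (chr8:91797588-91797905), with FLAG of 3.04 in R377C and 3.92 in S354F and SMC3 in R377C (2.84), S354F (3.50) and 3 other mutants, and not in WT. The site in Kcnq1, a potassium channel gene (chr7:143114871-143115072), had FLAG of 2.22 in R377C and 2.87 in S354F and SMC3 in R377C (4.48), R342C, R448Q and WT (5.21), and not in S354F. The sites near Eomes (chr9:118488364-118488544) and Hoxb13 (chr11:96198681-96198781), both developmental transcription factors, were weak in both FLAG lists, at percentiles 5.05 and 2.27 in R377C and 5.41 and 1.96 in S354F, and had SMC3 in no genotype. FLAG strength and the number of genotypes with cohesin thus varied from site to site also near these genes.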

How the data were processed

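ChIPmentation was done for FLAG, SMC3 and CTCF, and 22 peak lists were used, each pooling replicates 1 and 2 by its title, so replicates could not be compared. The submitters' processing notes name the tools deepTools, MACS2, Bowtie2 and Trim Galore and the build mm10, without version or setting. The value the authors deposited per peak is a score from peak calling, of unknown kind. Lines that repeat an interval for several summits were merged with the highest score. An overlap of at least 1 bp counted; they were found with pandas 2.3.3, numpy 2.4.6 and scipy 1.17.1 in Python 3.11.15, tested on simulated lists and checked against bedtools 2.31.1; matplotlib 3.10.9 drew the figures. No test was run, since each group has 1 list. Gene spans and promoter windows are those of RefSeq on GRCm38.p6, the assembly that mm10 names; the spans carry no exons here. The IgG control and FLAG in untreated cells were not used here.

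The sites, gene lists and rules were chosen with earlier results of these data known. Ranked by mean percentile in the R377C and S354F lists, named sites were the 6 highest, the 6 under the strongest untreated CTCF antibody peaks, and up to 4 highest with SMC3 in R377C and S354F only, in all 10 genotypes, in none, or with the CTCF antibody in 1 condition only. The 5 highest in a promoter window and, per gene list, the highest within 10 kb were added. Some of these are described only by count or are not reported here. The loose motif letters, 4 of the printed stretches, Dnah8, Wdfy3 and Stag1 were chosen after their values were seen.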

Additional observations from a re-analysis of the deposited data

How the results depend on the processing

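No paired analysis was possible because each list pools both replicates of its group, and no result comes from a test. The number of sites, 1459 in the text, was 41 with a reciprocal overlap of 50%, 81 with the upper 50% of the R377C and S354F lists, and 34 with the 3855 strongest peaks of every FLAG list. The reciprocal overlap was asked of the S354F and CTCF antibody peaks, while the exclusions stayed at 1 bp. The 34 sites were not among the 1459, because the excluded lists were shortened too. Leaving out each excluding list in turn gave 1463 to 1973 sites. SMC3 shares then ran from 30.3% to 38.2% in R377C, 36.1% to 44.9% in S354F and 28.7% to 34.4% as the mean of the 7 other mutants, against 36.3% to 46.1% in WT cells, with 99.8% of sites in each CTCF antibody list and 14.6% to 15.8% within 1 kb of a gene end. With the reciprocal overlap SMC3 shares were 4.88% in R377C, 2.44% in S354F, 4.18% in the other mutants and 0% in WT; with the 3855 strongest FLAG peaks they were 94.1%, 97.1%, 92.4% and 94.1% in that order, over 34 sites. With the upper 50% the share was 32.1% in R377C, 45.7% in S354F, 24.3% in the other mutants and 35.8% in WT. With the 42030 strongest SMC3 peaks of each list it was 20.2% in R377C, 30.0% in S354F, 17.8% in the other mutants and 30.5% in WT, and with SMC3 within 500 bp 43.6%, 49.97%, 40.1% and 47.4%. Without sites whose CTCF antibody peak held an excluded FLAG peak, chosen after seeing the data, it was 35.4% in S354F. The share in the treated and the untreated CTCF antibody list was 97.6% each with the reciprocal overlap and 100% each with the upper 50%, the strongest FLAG peaks or both CTCF antibody peaks required; with the treated peak required that of the treated list was 100%. Near a gene end lay 4.88% with the reciprocal overlap, 17.6% with the strongest FLAG peaks and 41.3% within 5 kb; 19 listed genes had a site within 50 kb. Of promoter windows, 25.5% held the stricter motif letters and 60.8% the loose ones. For the 7 other mutants taken singly, 126 shares were recomputed, of which 74 stayed within the interval of the main value, 28 were above it and 24 below. The cause of these shifts was not tested. Depth is unknown, which limits every statement that a peak is absent.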
